A study of Mus musculus with 6 samples.

Results

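The transcripts described here are the Nduf transcripts, which encode the nuclear-encoded subunits and assembly factors of respiratory complex I. They were taken as every row of the expression table whose symbol starts with Nduf, which gave 42 of 23235 rows. Of these, 4 have a symbol starting with Ndufaf and are assembly factors, and 38 are structural by symbol. All 42 passed the filter of more than 1 FPKM in at least 1 sample, which retained 12523 rows. Growing mouse oocytes were compared between 2 genotypes, with 3 samples each and 10 oocytes per sample. Pabpn1-null oocytes carried floxed Pabpn1 alleles and a Cre transgene under the Gdf9 promoter, which is active in oocytes (Pabpn1 fl/fl;Gdf9-Cre), and WT oocytes came from littermates; the labels give the strain as C57BL/6. The comparison asks how transcript levels change when oocytes grow without PABPN1, a nuclear protein that binds the poly(A) tail. The sources used here give neither the age of the mice for the sequenced oocytes nor whether the 3 samples of a genotype came from different mice, and the tests rest on the spread between samples, which may be partly technical.

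Complex I (NADH:ubiquinone oxidoreductase) passes electrons from NADH to ubiquinone in the inner mitochondrial membrane and pumps protons. Its core subunits, conserved from bacteria, carry the flavin and the iron-sulfur clusters, and part of them is encoded in mitochondrial DNA. Accessory subunits surround this core, and assembly factors act while the complex is built and are absent from the finished enzyme. The mouse oocyte is rich in mitochondria, and its respiration serves the growth and later maturation of the cell.

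Pabpn1 itself was at 0.595, 0.878 and 1.37 FPKM in the Pabpn1-null samples, against 21.9, 33.4 and 21.8 FPKM in the WT samples, as the labels require. Summed over all rows, FPKM was between 597103 and 638185 in Pabpn1-null samples and between 676077 and 739244 in WT samples. Spearman correlations over all rows kept were 0.970 to 0.982 among Pabpn1-null samples, 0.955 to 0.974 among WT samples and 0.886 to 0.916 between the genotypes, and no library stood apart from its group. All 12 oocyte markers of the list (such as Gdf9 and Zp3) were above 1 FPKM, with sums of 16710 to 18550 FPKM in Pabpn1-null and 14704 to 17179 FPKM in WT samples. By the test described below, 8 of the 12 were higher and 2 lower in Pabpn1-null oocytes, with a median log2 change of 0.47. Over all rows kept, 27.9% were higher and 20.2% lower. Of 10 granulosa cell markers, 6 were above 1 FPKM in at least 1 sample and Foxl2, Amh, Inhba and Fst were not, and the list summed to 31.3 to 43.0 FPKM in Pabpn1-null and 30.8 to 38.6 FPKM in WT samples. Sums were 1.20 to 1.49 FPKM in Pabpn1-null and 0.648 to 0.874 FPKM in WT samples for 6 theca and stroma markers, where 5 were not above 1 FPKM. They were 9.15 to 12.1 FPKM in Pabpn1-null and 7.95 to 9.78 FPKM in WT samples for 4 endothelial markers, and 0.975 to 2.65 FPKM in Pabpn1-null and 1.92 to 3.71 FPKM in WT samples for 4 blood and immune markers. The part of these cells in the results was not tested.

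Most Nduf transcripts were lower in Pabpn1-null oocytes. With limma on log2(FPKM + 1) and Benjamini-Hochberg adjustment over all rows kept, 29 of 42 fell, 2 rose (Ndufs1 and Ndufa4l2) and 11 did not pass at an adjusted p under 0.05. Over all rows kept, 20.2% were lower and 27.9% were higher by the same rule. In 30 of the 42 the highest Pabpn1-null value was below the lowest WT value, against 24.7% of all rows, and in 2 all Pabpn1-null values were above all WT values. The median log2 change was -0.53 over the 42, beside 0.09 over all rows. By class, 26 of 38 structural transcripts fell and 2 rose, with a median of -0.51, and 3 of 4 assembly factors fell and 0 rose, with a median of -0.69. Ndufa4 belongs to complex IV in current structures and Ndufa4l2 resembles it, and without this pair 25 of 36 structural transcripts fell and 1 rose. A lower value in a pool of oocytes may stand for fewer cells with the transcript or for less of it per cell, and the pools cannot tell these apart. The cDNA was primed with oligo-dT. The study reports shorter poly(A) tails of assayed transcripts and shorter 3′ untranslated regions of some transcripts in Pabpn1-null oocytes. Their part in these FPKM values was not tested. FPKM is relative to the other transcripts of the sample and does not measure RNA per oocyte.

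The counts depended on how the samples were scaled. Of all rows called, 57.9% were higher in Pabpn1-null oocytes as deposited, 70.9% after scaling to the same total FPKM, and 20.9% after multiplying by factors that lead to the spike-in-normalized means of the study. The median log2 change over all rows was 0.09, 0.25 and -0.36 in these settings, and 20.2%, 14.2% and 35.5% of all rows were lower, beside 29, 19 and 36 of the 42 Nduf transcripts, while Ndufs1 and Ndufa4l2 were the 2 that were higher in each.

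**Figure D1:**
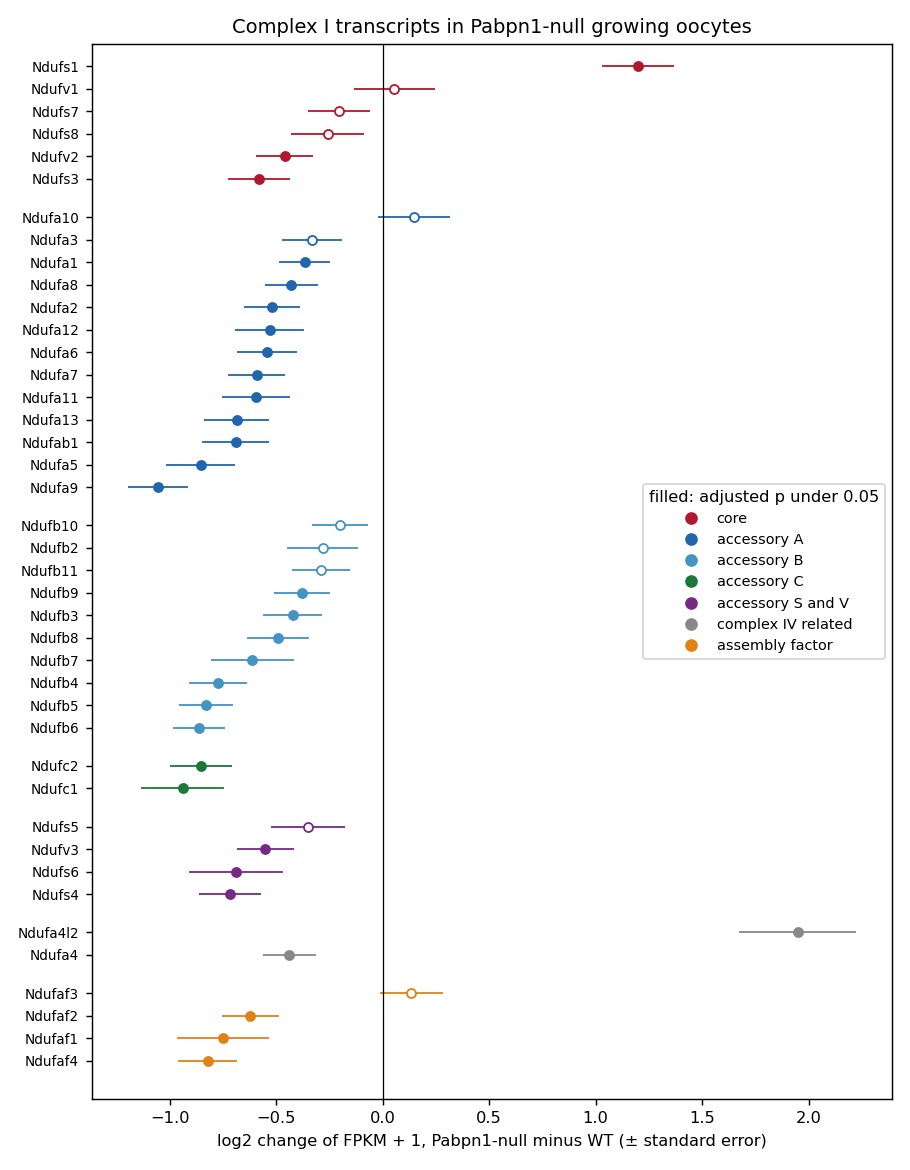
Log2 change of FPKM + 1, Pabpn1-null minus WT, with its standard error from limma, for 41 of the 42 Nduf transcripts grouped by role; filled points have an adjusted p under 0.05 and open points do not. Points for 23 of 29 accessory subunits are filled and lie left of 0, while Ndufs1 and Ndufa4l2 are the filled points right of 0.

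The binding motif of NRF1, a transcription factor of respiratory genes, was searched in the promoters of the members. The motif was GCGCA, then any base, then GCGC, on either strand, in the 300 bases from 250 before to 50 after the RefSeq start (GRCm38.p6), and no other motif was searched there. Of the 42, 37 had a promoter in this set. The motif was in 8 of 37 (21.6%), against 5.19% of the 27025 symbols in the set and 11.5% of 8888 tested rows with a promoter. The 8 were Ndufa5, Ndufa6, Ndufa8, Ndufa11, Ndufb4, Ndufs5, Ndufs6 and Ndufaf4, and 7 of them were lower, beside 20 of 29 without it. Of all tested rows, 20.2% were lower, and this share was not split by motif. Sites from 3 of these promoters show the range, as Ndufb4 held 3 separate sites, Ndufaf4 was the assembly factor with a site and Ndufs5 was the one that did not pass the test. In each 40-base stretch, in GRCm38.p6 coordinates and on the gene's strand, the capitals mark the motif.
Ndufb4, chr16:37654535-37654574, minus strand: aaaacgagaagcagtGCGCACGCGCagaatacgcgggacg
Ndufb4, chr16:37654423-37654462, minus strand: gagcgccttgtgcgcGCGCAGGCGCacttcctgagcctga
Ndufb4, chr16:37654366-37654405, minus strand: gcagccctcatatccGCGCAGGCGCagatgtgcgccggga
Ndufaf4, chr4:24897955-24897994, plus strand: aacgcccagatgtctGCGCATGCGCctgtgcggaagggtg
Ndufs5, chr4:123718260-123718299, minus strand: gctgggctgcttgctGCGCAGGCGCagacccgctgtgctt
The first Ndufb4 site starts 191 bases before the RefSeq start, the others 79 and 22, and the sites of Ndufaf4 and Ndufs5 start 113 and 98 bases before it. A match is a stretch of letters and no measure of binding.

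As PABPN1 acts at the poly(A) tail, the annotated 3′ ends were searched for a poly(A) signal (AATAAA or ATTAAA on the gene's strand) in the last 40 bases of the mm9 transcript end of GENCODE vM1. Only transcripts with an annotated 3′ untranslated region of at least 40 bases were searched. Of 40 such members, 31 (77.5%) held one of the signals, against 75.5% of 11076 such tested rows. Of the 31, 22 were lower, and of the 9 without, 6 were. Of all tested rows, 20.2% were lower, and this share was not split by signal. The stretches printed here, with the signal in capitals, belong to the transcript with the rise of the core group, the 2 largest falls, the largest fall among the 4 Ndufaf symbols and the one with the smallest change, and all 5 hold a signal.
Ndufs1, chr1:63190186-63190215, minus strand: taactagtttAATAAAactatcattttctc
Ndufa9, chr6:126771885-126771914, minus strand: cttgttttctATTAAAtaactatatataat
Ndufc1, chr3:51208614-51208643, minus strand: ttgattgatcAATAAAgatgccagcggcca
Ndufaf4, chr4:24832118-24832147, plus strand: atcagtccccAATAAActgcactgcaatcc
Ndufv1, chr19:4007512-4007541, minus strand: gaaactggacAATAAAcaagtgctgtccac
Ndufs1, Ndufc1, Ndufaf4 and Ndufv1 have AATAAA and Ndufa9 has ATTAAA.

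The 7 nuclear-encoded core subunits did not move together. Ndufs3 and Ndufv2 fell, Ndufs1 rose and the other 4 did not pass the test, with a median log2 change of -0.21. Over all rows kept, 20.2% were lower and 27.9% were higher, with a median of 0.09. Ndufs1, the largest subunit of the complex and the carrier of several iron-sulfur clusters of the NADH-oxidizing module, lies at chr1:63190170-63223396 on the minus strand of mm9. It was at 24.4, 29.6 and 26.8 FPKM in the Pabpn1-null samples, against 9.91, 13.2 and 10.6 FPKM in the WT samples. Every Pabpn1-null sample was above every WT sample, by a ratio of group means of 2.40. The change was 1.20 on the log2 scale (standard error 0.17, adjusted p = 4.71e-04 from limma), and it passed in every alternative tried, with log2 changes of 0.67 to 1.39. The gene model overlaps the antisense non-coding gene Gm11602 over 14695 bases, counted from gene start to gene end with introns. No source says that reads were counted by strand, so reads within the overlap may not be told apart. The overlap of exons was not measured.

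Ndufs3, a subunit of the module that binds ubiquinone, at chr2:90734791-90744984 on the minus strand, was at 93.9, 95.3 and 106 FPKM in the Pabpn1-null samples, against 173, 127 and 146 FPKM in the WT samples. The groups did not overlap, and the change was -0.58 on the log2 scale (standard error 0.15, adjusted p = 0.00880 from limma). Its model overlaps that of Kbtbd4 on the other strand by 88 bases. Ndufv2, an iron-sulfur subunit beside the flavin site, at chr17:66428135-66450899 on the minus strand, was at 120.3, 103 and 125 FPKM in the Pabpn1-null samples, against 159, 148 and 174 FPKM in the WT samples. Here too all Pabpn1-null samples were below all WT samples, with a change of -0.46 on the log2 scale (standard error 0.13, adjusted p = 0.0176 from limma). This call was lost without Pabpn1-null 1 (adjusted p = 0.0554 from limma), without Pabpn1-null 2 (adjusted p = 0.0547 from limma) and with scaling to the same total FPKM (adjusted p = 0.0787 from limma).

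Ndufv1, which binds the flavin that takes electrons from NADH, had the smallest change among structural transcripts. At chr19:4007497-4012806 on the minus strand, it was at 67.8, 81.9 and 72.9 FPKM in the Pabpn1-null samples, against 80.8, 52.5 and 84.9 FPKM in the WT samples. The groups overlapped, with WT 2 the lowest of the 6, and the change was 0.05 on the log2 scale (standard error 0.19, adjusted p = 0.831 from limma). Ndufs7 and Ndufs8 carry the last iron-sulfur clusters of the chain, near the ubiquinone site. Ndufs7 was at 126 ± 1.38 FPKM in Pabpn1-null and 147 ± 25.8 FPKM in WT oocytes (SD, n = 3 each) and Ndufs8 at 51.7 ± 6.18 FPKM in Pabpn1-null and 62.4 ± 11.4 FPKM in WT oocytes (SD, n = 3 each). Their log2 changes were -0.21 and -0.26, with adjusted p of 0.265 and 0.233 from limma. With the spike-in factors both were lower (adjusted p = 0.00242 and 0.00442 from limma).

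**Figure D2:**
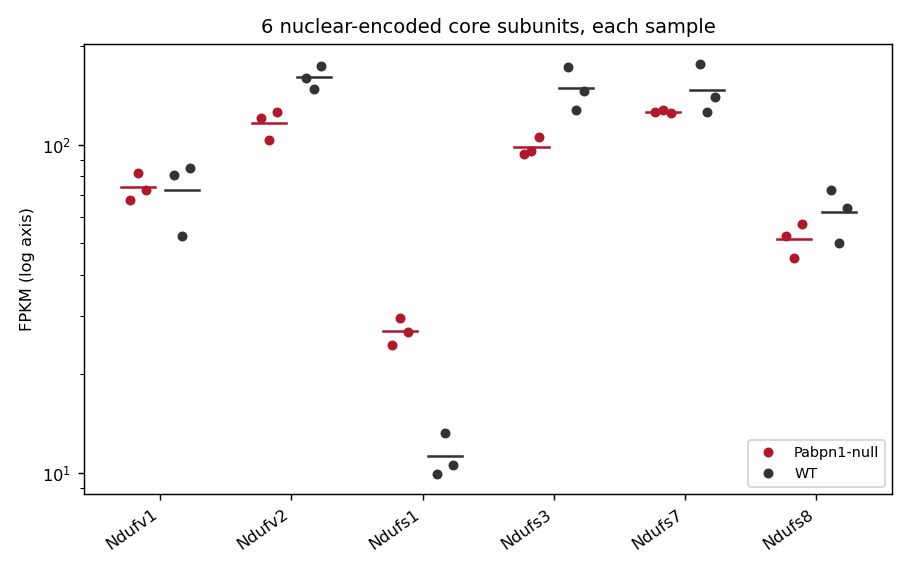
FPKM of 6 of the 7 core subunits on a log axis, with each point 1 sample, Pabpn1-null at left and WT at right of each pair, and a line at the group mean. Ndufs1 lies between 24.4 and 29.6 FPKM in Pabpn1-null samples and between 9.91 and 13.2 FPKM in WT samples, below the others shown in WT.

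The accessory subunits that passed the test all fell. Of 29, 23 fell and 0 rose by limma at an adjusted p under 0.05, and without adjustment 24 had a p under 0.05 in the lower direction and 0 in the higher, against 23.7% of all rows lower and 31.5% higher at that threshold. At the adjusted threshold, 20.2% of all rows were lower and 27.9% were higher. In 24 of the 29, all Pabpn1-null samples were below all WT samples, against 24.7% of all rows. The median log2 change was -0.55, and the changes ran over -1.05 (Ndufa9) to 0.15 (Ndufa10). No accessory subunit was called higher under any alternative tried, and the number called lower ran from 15 to 28. It was 15 with the same total FPKM, with quantile normalization and without Pabpn1-null 1, where 14.2%, 24.1% and 13.9% of all rows were lower, and 28 with the spike-in factors, where 35.5% were. With quantile normalization Ndufa1 and Ndufb11 had positive log2 changes of 0.051 and 0.085 and were not called.

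Of the 13 accessory subunits named A, 11 fell, with a median log2 change of -0.54, against 20.2% of all rows lower and a median of 0.09. Ndufa9, which binds a nucleotide cofactor where the 2 arms of the complex meet, fell the most of all 42. At chr6:126771881-126799162 on the minus strand, it was at 161, 134 and 155 FPKM in the Pabpn1-null samples, against 364, 290.2 and 286 FPKM in the WT samples. The highest Pabpn1-null sample was well below the lowest WT sample, and the change was -1.05 on the log2 scale (standard error 0.14, adjusted p = 3.54e-04 from limma). Ndufa5, of the ubiquinone module, was at 169.9 ± 19.7 FPKM in Pabpn1-null and 311 ± 60.1 FPKM in WT oocytes (SD, n = 3 each), a change of -0.86 on the log2 scale (standard error 0.16, adjusted p = 0.00205 from limma). Ndufab1, the mitochondrial acyl carrier protein, which also serves fatty acid synthesis and iron-sulfur cluster formation, changed by -0.69 (adjusted p = 0.00514 from limma), and Ndufa13, also known as GRIM-19, by -0.69 (adjusted p = 0.00465 from limma). Ndufa6, a partner of the acyl carrier protein, changed by -0.54, Ndufa7 by -0.59 and the membrane subunit Ndufa11 by -0.60, with adjusted p of 0.0105, 0.00517 and 0.0119 from limma. The smaller falls were Ndufa12 (a paralogue of the assembly factor Ndufaf2) at -0.53, Ndufa2 (of the NADH module, with a thioredoxin-like fold) at -0.52, Ndufa8 (on the side of the intermembrane space) at -0.43 and Ndufa1 (a small membrane subunit) at -0.37, with adjusted p of 0.0227, 0.00905, 0.0172 and 0.0313 from limma. These last 4 calls were each lost when 1 library or another was left out. Without Pabpn1-null 1 the adjusted p from limma was 0.113 for Ndufa1, 0.0502 for Ndufa2 and 0.0599 for Ndufa8. Without Pabpn1-null 2 the adjusted p from limma was 0.0804 for Ndufa1 and 0.0841 for Ndufa12. Without Pabpn1-null 3 the adjusted p from limma was 0.0502 for Ndufa8 and 0.0509 for Ndufa12. Without WT 1 the adjusted p from limma was 0.103 for Ndufa1, 0.0592 for Ndufa8 and 0.0846 for Ndufa12. Without WT 3 the adjusted p from limma was 0.0574 for Ndufa12. With scaling to the same total FPKM, Ndufa1, Ndufa8 and Ndufa12 did not pass (adjusted p = 0.163, 0.0830 and 0.0713 from limma). With quantile normalization, Ndufa2 and Ndufa8 did not pass either (log2 changes of -0.065 and -0.24, adjusted p = 0.561 and 0.0714 from limma), and Ndufa1 did not without the trend in eBayes (adjusted p = 0.0791 from limma).

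The pair of A subunits that did not pass differed in direction. Ndufa3, a membrane arm subunit, was at 302 ± 34.8 FPKM in Pabpn1-null and 381 ± 47.4 FPKM in WT oocytes (SD, n = 3 each), -0.33 on the log2 scale (adjusted p = 0.0773, limma). It passed in the lower direction with median-of-ratios scaling, with the spike-in factors and without WT 2 (adjusted p = 0.0375, 0.00106 and 0.0382 from limma). Ndufa10, which has a fold like that of nucleoside kinases, was at 125 ± 9.0 FPKM in Pabpn1-null and 114 ± 23.7 FPKM in WT oocytes (SD, n = 3 each), 0.15 on the log2 scale (adjusted p = 0.491, limma). WT 2 held the lowest Ndufa10 value of the 6, and without it the log2 change was -0.036.

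The 10 subunits named B sit in the far part of the membrane arm. Of these, 7 fell, with a median log2 change of -0.46, against 20.2% of all rows lower and a median of 0.09. Ndufb6, at chr4:40217624-40226454 on the minus strand, had the largest of these changes and was at 256, 237 and 278 FPKM in the Pabpn1-null samples, against 508, 451 and 445 FPKM in the WT samples. The groups were far apart, at -0.86 on the log2 scale (standard error 0.12, adjusted p = 4.62e-04 from limma). Ndufb5 was at 126 ± 9.75 FPKM in Pabpn1-null and 225 ± 16.8 FPKM in WT oocytes (SD, n = 3 each), a change of -0.83 on the log2 scale (standard error 0.13, adjusted p = 7.08e-04 from limma), and its model overlaps Mrpl47 on the other strand by 158 bases. Ndufb4, the most abundant complex I subunit in WT, was at 457 ± 61.4 FPKM in Pabpn1-null and 779.9 ± 72.8 FPKM in WT oocytes (SD, n = 3 each), a change of -0.77 on the log2 scale (standard error 0.14, adjusted p = 0.00144 from limma). The other falls were Ndufb7 at -0.61, Ndufb8 at -0.49, Ndufb3 at -0.42 and Ndufb9 at -0.38, with adjusted p of 0.0258, 0.0204, 0.0299 and 0.0382 from limma. These 4 calls were each lost when a library was left out. Without Pabpn1-null 1 the adjusted p from limma was 0.0940 for Ndufb3, 0.0502 for Ndufb7, 0.0620 for Ndufb8 and 0.118 for Ndufb9. Without Pabpn1-null 2 the adjusted p from limma was 0.0918 for Ndufb3, 0.10 for Ndufb7, 0.0701 for Ndufb8 and 0.0995 for Ndufb9. Without Pabpn1-null 3 the adjusted p from limma was 0.0604 for Ndufb7 and 0.0611 for Ndufb9. Without WT 1 the adjusted p from limma was 0.0888 for Ndufb7, 0.0739 for Ndufb8 and 0.125 for Ndufb9. Without WT 2 the adjusted p from limma was 0.0540 for Ndufb3 and 0.0620 for Ndufb7. Without WT 3 the adjusted p from limma was 0.0819 for Ndufb3. With scaling to the same total FPKM none of the 4 passed, at adjusted p of 0.150 (Ndufb3), 0.0875 (Ndufb7), 0.0894 (Ndufb8) and 0.195 (Ndufb9) from limma. With quantile normalization their log2 changes were -0.11, -0.48, -0.15 and -0.11 in that order, with adjusted p of 0.433, 0.0512, 0.320 and 0.397 from limma. With no filter, Ndufb3, Ndufb7 and Ndufb9 did not pass (adjusted p = 0.0538, 0.0616 and 0.0565 from limma), and without the trend Ndufb3 and Ndufb9 did not (adjusted p = 0.0664 and 0.0826 from limma). Ndufb2, Ndufb10 and Ndufb11 did not pass, with log2 changes of -0.28, -0.20 and -0.29 and adjusted p of 0.185, 0.224 and 0.108 from limma, although every Pabpn1-null value of Ndufb11 was below every WT value. With the spike-in factors the 3 were lower (adjusted p = 0.00195, 0.00399 and 0.00133 from limma), and Ndufb11 was lower with median-of-ratios scaling too (adjusted p = 0.0489 from limma).

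Both C subunits, which sit in the membrane arm next to the core, fell, against 20.2% of all rows. Ndufc1, at chr3:51208599-51212910 on the minus strand, was at 147, 107 and 165 FPKM in the Pabpn1-null samples, against 335, 238 and 232 FPKM in the WT samples. All Pabpn1-null samples were below all WT samples, with WT 1 well above the other two, and the change was -0.94 on the log2 scale (standard error 0.19, adjusted p = 0.00334 from limma). Ndufc2 was at 137 ± 18.3 FPKM in Pabpn1-null and 248 ± 25.4 FPKM in WT oocytes (SD, n = 3 each), a change of -0.85 on the log2 scale (standard error 0.14, adjusted p = 0.00115 from limma).

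Of the 4 accessory subunits with S or V symbols, 3 fell, against 20.2% of all rows. Ndufs4, a small subunit of the NADH module whose loss in mice gives a model of Leigh syndrome, was at 54.4 ± 5.01 FPKM in Pabpn1-null and 90.3 ± 10.8 FPKM in WT oocytes (SD, n = 3 each), a change of -0.72 on the log2 scale (standard error 0.15, adjusted p = 0.00299 from limma). Ndufv3, of the same module, was at 103 ± 8.61 FPKM in Pabpn1-null and 152 ± 12.9 FPKM in WT oocytes (SD, n = 3 each), a change of -0.55 on the log2 scale (standard error 0.13, adjusted p = 0.00702 from limma). Ndufs6, which binds zinc, was at 102, 92.4 and 113 FPKM in the Pabpn1-null samples, against 225, 177 and 114 FPKM in the WT samples. WT 3 was just above the highest Pabpn1-null sample while WT 1 and WT 2 were much higher, and the change was -0.69 on the log2 scale (standard error 0.22, adjusted p = 0.0272 from limma). The call was lost with some libraries left out, at an adjusted p from limma of 0.0796 without Pabpn1-null 1, 0.106 without Pabpn1-null 2, 0.103 without WT 1 and 0.0871 without WT 2. It was lost too with no filter, with the same total FPKM and with quantile normalization (adjusted p = 0.0707, 0.0867 and 0.0513 from limma). Ndufs5, a subunit on the side of the intermembrane space, did not pass (log2 change -0.35, adjusted p = 0.119 from limma), but passed without WT 2 (adjusted p = 0.0129 from limma) and with the spike-in factors (adjusted p = 0.00252 from limma).

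Ndufa4 and Ndufa4l2 moved in opposite directions. Ndufa4, the most abundant of the 42 in each sample, was at 779, 713 and 834 FPKM in the Pabpn1-null samples, against 1184, 995 and 980.2 FPKM in the WT samples. The groups did not overlap, at -0.44 on the log2 scale (standard error 0.12, adjusted p = 0.0155 from limma), and without Pabpn1-null 1 the adjusted p from limma was 0.0685 for Ndufa4 and without WT 1 it was 0.0636. With quantile normalization its log2 change was -0.10 and with the same total FPKM -0.24, and neither passed (adjusted p = 0.359 and 0.0574 from limma). Ndufa4l2, a paralogue that is known as a target of hypoxia-inducible factor in cultured cells, was at 12.5, 7.25 and 5.86 FPKM in the Pabpn1-null samples, against 1.5, 0.878 and 1.82 FPKM in the WT samples. Every Pabpn1-null sample was above every WT sample, with Pabpn1-null 1 the highest, and the change was 1.95 on the log2 scale (standard error 0.27, adjusted p = 4.62e-04 from limma). The scale of log2(FPKM + 1) understates changes of low transcripts, and the ratio of its mean FPKM in Pabpn1-null to that in WT oocytes was 6.09. As a percentage of the Ndufa4 level, both per length, its level was 1.6, 1.02 and 0.703% in the Pabpn1-null samples, against 0.127, 0.0883 and 0.186% in the WT samples. The number of reads behind these low values is not known from the table.

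The spread of levels among the 36 structural transcripts of the complex itself was smaller in Pabpn1-null oocytes, and most of this difference rested on Ndufs1. On FPKM, a scale per length, the SD of their log2 levels was 1.06, 1.00 and 1.09 in the Pabpn1-null samples, against 1.28, 1.26 and 1.23 in the WT samples. The highest level divided by the lowest was 18.8, 15.4 and 19.5 in the Pabpn1-null samples, against 87.1, 55.1 and 71.0 in the WT samples. In each WT sample the lowest was Ndufs1 and the highest Ndufb4. Ndufs1 was also the lowest in Pabpn1-null 1 and 3, and Ndufa13 was in Pabpn1-null 2. Without Ndufs1, a choice made after seeing the data, the ratio of highest to lowest was 16.5, 15.4 and 19.5 in the Pabpn1-null samples, against 16.6, 17.4 and 18.8 in the WT samples, and the groups overlapped. The SD over these 35 was 0.980, 0.948 and 1.015 in the Pabpn1-null samples, against 1.04, 1.10 and 1.023 in the WT samples. The highest Pabpn1-null value was only just below the lowest WT value. The median accessory level divided by the median core level was 2.49, 1.67 and 2.32 in the Pabpn1-null samples, against 4.14, 4.48 and 2.75 in the WT samples, and the groups did not overlap. Without Ndufs1 this ratio was 2.1, 1.6 and 1.90 in the Pabpn1-null samples, against 2.79, 2.69 and 2.08 in the WT samples, and Pabpn1-null 1 was just above WT 3. No test was made over members.

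**Figure D3:**
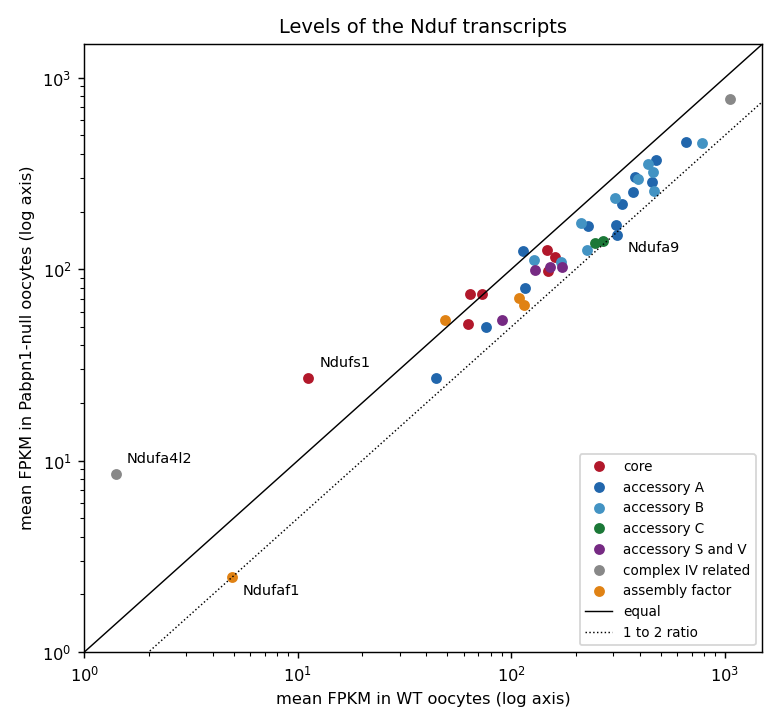
Mean FPKM of each Nduf transcript in Pabpn1-null oocytes against its mean in WT oocytes, on log axes, coloured by role, with the line of equal levels and the line of a 1 to 2 ratio. Most points lie under the line of equal levels, Ndufs1 (27.0 FPKM in Pabpn1-null and 11.2 FPKM in WT oocytes) and Ndufa4l2 (8.53 FPKM in Pabpn1-null and 1.4 FPKM in WT oocytes) lie above it, and Ndufa9 lies at the 1 to 2 line.

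**Figure D4:**
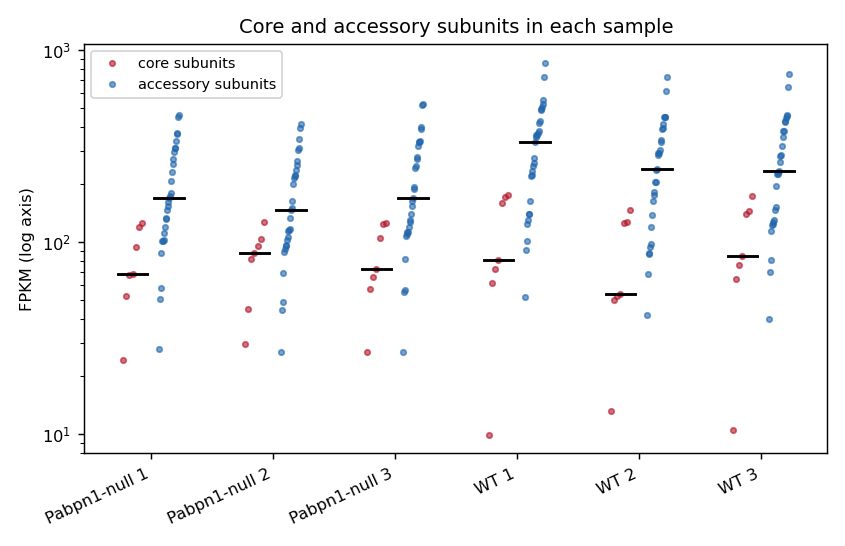
FPKM of the 7 core (red) and 29 accessory (blue) subunits in each of the 6 samples, on a log axis, with a bar at the median. The medians of accessory subunits were between 147 and 171 FPKM in Pabpn1-null samples and between 234 and 335 FPKM in WT samples, while the medians of core subunits overlapped between the genotypes.

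As a share of all FPKM, the 36 structural transcripts summed to 1.03, 0.950 and 1.07% in the Pabpn1-null samples, against 1.39, 1.25 and 1.22% in the WT samples. All Pabpn1-null samples were below all WT samples. The core subunits alone made up 0.0885, 0.0957 and 0.0907% in the Pabpn1-null samples, against 0.0991, 0.0843 and 0.0963% in the WT samples, and here the groups overlapped. The 4 assembly factors made up 0.0336, 0.0279 and 0.0312% in the Pabpn1-null samples, against 0.0378, 0.0399 and 0.0391% in the WT samples, again with no overlap.

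Of the 4 assembly factors with an Ndufaf symbol, 3 fell, against 20.2% of all rows. Ndufaf4, which joins Ndufaf3 on the early ubiquinone module, at chr4:24825230-24832148 on the plus strand, was at 71.1, 55.7 and 67.8 FPKM in the Pabpn1-null samples, against 112, 114 and 118 FPKM in the WT samples. The groups were far apart relative to their spread, at -0.82 on the log2 scale (standard error 0.14, adjusted p = 0.00116 from limma). Ndufaf2, a paralogue of Ndufa12 that acts late when the NADH module is joined, at chr13:108842784-108948819 on the minus strand, was at 75.3, 61.7 and 73.9 FPKM in the Pabpn1-null samples, against 108, 104 and 113 FPKM in the WT samples. Again the groups did not overlap, at -0.62 on the log2 scale (standard error 0.13, adjusted p = 0.00418 from limma). Ndufaf1, which acts in an intermediate complex that builds the membrane arm, at chr2:119481182-119488563 on the minus strand, was at 2.02, 2.70 and 2.72 FPKM in the Pabpn1-null samples, against 6.31, 4.74 and 3.71 FPKM in the WT samples. All 3 Pabpn1-null values were below the WT values at these low levels, and the change was -0.75 on the log2 scale (standard error 0.22, adjusted p = 0.0173 from limma). This call too was lost with some libraries left out, at an adjusted p from limma of 0.0882 without Pabpn1-null 1 and 0.0697 without WT 1.

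Ndufaf3, the partner of Ndufaf4, had the smallest change of this class. At chr9:108468197-108469673 on the minus strand, it was at 61.6, 46.5 and 54.6 FPKM in the Pabpn1-null samples, against 52.2, 46.5 and 48.5 FPKM in the WT samples. The groups overlapped, at 0.13 on the log2 scale (standard error 0.15, adjusted p = 0.474 from limma). The difference between its change and that of Ndufaf4 was not tested.

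Another 4 assembly factors are listed under older symbols that do not start with Nduf, and the RefSeq gene table paired them with Ndufaf5 to Ndufaf8. Ndufaf6, listed as 2310030N02Rik and needed early in assembly, was at 9.0, 12.1 and 13.04 FPKM in the Pabpn1-null samples, against 28.9, 24.5 and 30.1 FPKM in the WT samples. With no overlap of groups, its change of -1.23 on the log2 scale (standard error 0.18, adjusted p = 5.89e-04 from limma) was larger than that of any of the 4 above. Ndufaf5 (2310003L22Rik), which modifies Ndufs7, changed by -0.64 (adjusted p = 0.0223 from limma), and Ndufaf7 (2410091C18Rik), a protein methyltransferase, by -0.45 (adjusted p = 0.0423 from limma). Both calls were lost with some libraries left out. For Ndufaf5 the adjusted p from limma was 0.0845 without Pabpn1-null 1 and 0.0724 without Pabpn1-null 2. For Ndufaf7 it was 0.129 without Pabpn1-null 1, 0.120 without Pabpn1-null 2, 0.0588 without Pabpn1-null 3, 0.0946 without WT 1 and 0.101 without WT 3 by limma. With the same total FPKM neither passed (adjusted p = 0.0762 for Ndufaf5 and 0.173 for Ndufaf7 from limma), and Ndufaf7 did not with no filter or without the trend (adjusted p = 0.0548 and 0.0575 from limma). Ndufaf8 (1810043H04Rik), the partner of Ndufaf5, was at 182 ± 12.1 FPKM in Pabpn1-null and 184 ± 5.54 FPKM in WT oocytes (SD, n = 3 each), -0.02 on the log2 scale (adjusted p = 0.925, limma). Ndufaf8 was lower with the spike-in factors (log2 change -0.57, adjusted p = 0.0187 from limma). Including the 4 older symbols, 6 of 8 assembly factors fell and 0 rose on the values as deposited, and the median was -0.63. By the same rule, 20.2% of all rows were lower and 27.9% were higher, with a median of 0.09.

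Assembly factors without an Nduf symbol did not move as a group. Of 13 listed, 9 were found and tested, 1 fell, 1 rose and 7 did not pass, with a median log2 change of -0.07. Over all rows kept, 20.2% were lower and 27.9% were higher. Nubpl, which delivers iron-sulfur clusters to complex I, was at 11.5, 8.46 and 10.6 FPKM in the Pabpn1-null samples, against 32.5, 31.9 and 36.2 FPKM in the WT samples. It held the largest fall of the list, at -1.63 on the log2 scale (standard error 0.17, adjusted p = 1.09e-04 from limma). Tmem186, part of the same intermediate complex as Ndufaf1, was at 11.96, 17.7 and 12.3 FPKM in the Pabpn1-null samples, against 8.70, 8.50 and 10.1 FPKM in the WT samples, at 0.55 on the log2 scale (standard error 0.19, adjusted p = 0.0383 from limma). This call was lost under 10 of 16 alternatives, among them each of Pabpn1-null 1, 2 and 3 and WT 1 and 2 left out (adjusted p of 0.0660, 0.131, 0.0629, 0.101 and 0.0827 from limma). Ecsit and Acad9, partners of Ndufaf1, had log2 changes of 0.04 and 0.43 and did not pass (adjusted p = 0.906 and 0.0581 from limma).

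**Figure D5:**
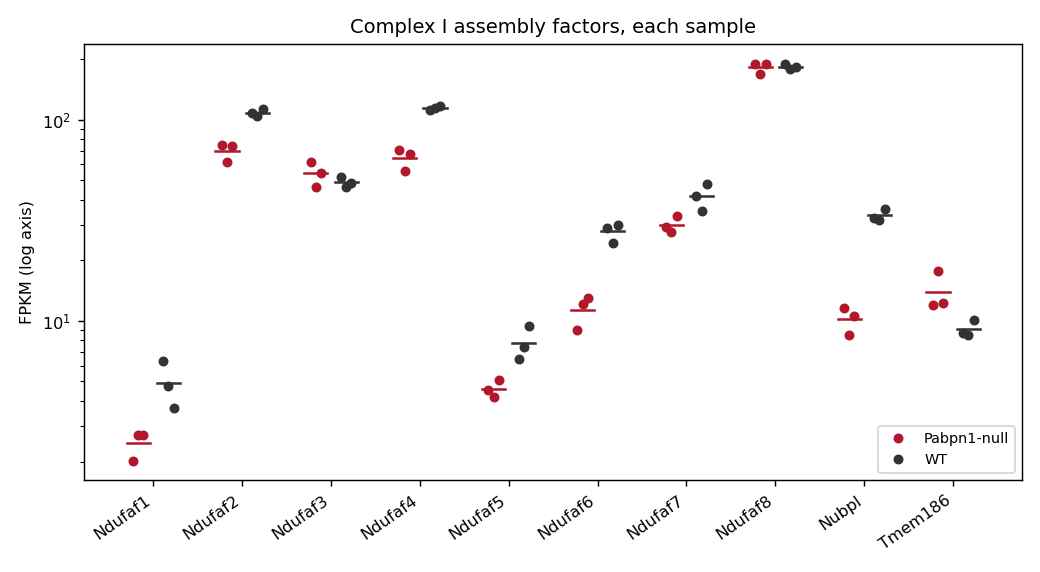
FPKM of 8 Ndufaf assembly factors, Nubpl and Tmem186 in each sample on a log axis, with Pabpn1-null at left and WT at right of each pair and a line at the group mean. Ndufaf6 and Nubpl have the widest gaps, and Ndufaf3 and Ndufaf8 overlap between the genotypes.

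Complex II is the respiratory complex whose subunits are all encoded in the nucleus. Of 6 genes (subunits and assembly factors), Sdhc and Sdhd, the membrane anchor subunits, fell by 0.75 and 0.67 on the log2 scale (adjusted p = 0.00341 and 0.00588 from limma), and 0 rose. Over all rows kept, 20.2% were lower and 27.9% were higher by the same test. The catalytic subunits did not pass, and Sdha was at 47.0, 88.8 and 45.9 FPKM in the Pabpn1-null samples, against 40.1, 43.0 and 47.2 FPKM in the WT samples. Pabpn1-null 2 was the highest of the 6. For comparison by symbol, 3 of 9 complex III genes, 11 of 17 complex IV genes, 8 of 17 ATP synthase genes and 35 of 76 mitochondrial ribosome genes tested were lower, and 2 of each were higher. The median log2 changes were -0.29, -0.43, -0.45 and -0.34 in that order, beside -0.53 over the 36 structural complex I transcripts. The differences between these lists were not tested. The table has 0 rows for mitochondrially encoded subunits.

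Among 8 regulators of nuclear genes for mitochondrial proteins, 6 were tested, 2 rose and 1 fell. Over all rows kept, 27.9% were higher and 20.2% were lower. Nrf1, whose motif was searched above, was at 66.0, 72.3 and 64.5 FPKM in the Pabpn1-null samples, against 33.6, 27.9 and 46.5 FPKM in the WT samples, at 0.92 on the log2 scale (standard error 0.19, adjusted p = 0.00301 from limma). Gabpa, the DNA-binding subunit of a second such factor (also called NRF2), was low. It was at 5.24, 3.78 and 4.10 FPKM in the Pabpn1-null samples, against 1.93, 1.90 and 1.54 FPKM in the WT samples. Gabpa changed by 0.94 on the log2 scale (standard error 0.19, adjusted p = 0.00317 from limma). With the spike-in factors neither passed (adjusted p = 0.204 for Nrf1 and 0.0829 for Gabpa from limma). Yy1, a zinc finger factor that also acts on such genes, was at 4.98, 3.60 and 3.78 FPKM in the Pabpn1-null samples, against 16.0, 19.4 and 8.07 FPKM in the WT samples, at -1.53 on the log2 scale (standard error 0.29, adjusted p = 0.00205 from limma), with all Pabpn1-null samples below WT. Ppargc1a and Esrra were under 1 FPKM in all samples. Of 8 tested genes for mitochondrial genome expression, Polrmt (the mitochondrial RNA polymerase), Polg2 and Lrpprc rose by 0.98, 1.08 and 0.71, and Tfb1m and Polg had log2 changes of -0.47 and -0.72, all past the test. The shares of all rows given for the regulators stand beside these calls too. With the spike-in factors Polrmt, Polg2 and Lrpprc did not pass (adjusted p = 0.0915, 0.0726 and 0.609 from limma), and the log2 change of Lrpprc was 0.18. With quantile normalization Lrpprc did not pass (adjusted p = 0.0705 from limma), with the same total FPKM Tfb1m and Polg did not (adjusted p = 0.0964 and 0.102 from limma), and with no filter Lrpprc and Polg did not (adjusted p = 0.0677 and 0.0815 from limma). The calls of Lrpprc, Tfb1m and Polg were each lost when any of several single libraries was left out, with the highest adjusted p at 0.119 (Lrpprc, without Pabpn1-null 2), 0.0738 (Tfb1m, without Pabpn1-null 2) and 0.137 (Polg, without Pabpn1-null 1) from limma.

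The members differ in length and level, and the share of lower calls differed with both. Core subunits had a median coding length of 792 nucleotides (639 to 2184) and accessory subunits of 414 (213 to 1407). Of 31 members with a coding length of at most 600 nucleotides 24 were lower, against 40.8% of all tested rows of that length, whose median log2 change was -0.33. Of the 11 longer members, 5 were lower, against 17.1% of all longer tested rows. Of 32 members with a WT mean above 100 FPKM, 25 were lower, against 54.1% of all rows at that level, with a median of -0.44. Of the 10 at or under 100 FPKM, 4 were lower, against 16.3% of all rows at such levels. Over the 36 structural transcripts, the log2 change had a Pearson r of 0.57 and a Spearman rho of 0.30 with log2 coding length, and without Ndufs1 these were 0.39 and 0.24. Over the 29 accessory subunits alone they were 0.08 and -0.03, and over 11638 rows with a coding transcript 0.18 and 0.21. With log2 WT level, the values were -0.62 and -0.38 over the 36 and -0.38 and -0.32 without Ndufs1. Over the 29 accessory subunits they were -0.14 and -0.08, and over 11628 rows -0.30 and -0.27. These correlations are across genes, which share the 6 libraries and are not independent replicates, and the WT level enters the change itself.

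Some values are uncertain because of neighbours and copies. Gene models of 11 members overlap another model, and in 7 of them the other gene is coding and in the table: Ndufa13 (Tssk6), Ndufa2 (Tmco6), Ndufa4l2 (Shmt2), Ndufb11 (Rbm10), Ndufb2 (Adck2 and Braf), Ndufb5 (Mrpl47) and Ndufs3 (Kbtbd4). Pseudogenes or gene copies exist for Ndufa11, Ndufa12, Ndufab1, Ndufb4, Ndufs5 and Ndufs6, with which reads may be shared or dropped as not unique. Their part in the values was not tested.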

How the data were processed

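Growing oocytes were lysed in lysis buffer with ERCC spike-in, and cDNA was made by Smart-seq2 from oligo-dT primers and sequenced, with 3 samples per genotype and 10 oocytes per sample. According to the methods and the submitters' processing notes, the authors trimmed reads to 50 bases, aligned them to mm9 by TopHat2 2.1.1, and derived FPKM from reads with a unique alignment by Cufflinks 2.2.1, guided by UCSC models. The deposited FPKM have 1 added, which was subtracted; all 6 sample columns were used, with groups from the labels. The methods state a normalization to the spike-in, but the deposited values differ from the spike-in-normalized means of the study by a factor per sample, so they were used as they are and the factors (0.8333 for each Pabpn1-null sample and 1, 1.417 and 1.308 for the WT samples, from 2003 shared rows) served as an alternative. Read counts behind the FPKM are not known, so no counting interval is given.

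Rows above 1 FPKM in at least 1 sample (12523) were tested across all genes by a linear model of log2(FPKM + 1) on genotype, with variances moderated by eBayes along a trend in level (limma 3.58.1, R 4.3.3). P-values were adjusted by Benjamini-Hochberg over the rows retained, and 0.05 was the threshold. The step was run on simulated data with 200 of the 12523 rows changed. Far more rows were called in the data, and the simulation did not address the scaling of samples. Every Nduf transcript was counted, the result of 1 is not reported here on its own, those past the threshold were named, and values per sample are given for the called core subunits, the 3 largest falls and all called rises of structural subunits, the called assembly factors, and the transcript with the smallest change of each class; Ndufs6, Ndufa4, Sdha and the genes without an Nduf symbol were added after their values were seen. The members, lists and roles were chosen with earlier results of these data known, and the lists were written from general knowledge. Alternatives were no filter, a pseudocount of 0.1, a minimum mean of 5 FPKM, quantile normalization, median-of-ratios scaling, scaling to 1 total FPKM, the spike-in factors, each sample left out, the replicate number as a block, and eBayes without trend or with robust estimation. Coordinates and lengths came from GENCODE vM1 (mm9) and promoters from RefSeq (GRCm38.p6); no coordinate was converted.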

Additional observations from a re-analysis of the deposited data

How the results depend on the processing

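Of 31 Nduf transcripts called, 19 kept their call under all 16 alternatives (17 lower, Ndufs1 and Ndufa4l2) and 12 lost it under at least 1; Ndufa4l2 and Ndufaf1 were below the filter of a mean of at least 5 FPKM and had no value there. Lower transcripts numbered 29, against 19 with the same total FPKM, 20 with quantile normalization, 36 with the spike-in factors and 18 to 28 with 1 library left out (18 without Pabpn1-null 1), while 20.2% of all rows were lower, against 14.2%, 24.1%, 35.5% and 13.9% to 22.0% in these settings. The higher ones numbered 2, against 1 with a mean of at least 5 FPKM, which removes Ndufa4l2, and 2 with each library left out. With the replicate block, 30 were lower, Ndufa3 among them (adjusted p = 0.0387 from limma), and 2 higher, and the structural and assembly medians stayed at -0.51 and -0.69. Deviations of same-numbered samples correlated at -0.0135, -0.0149 and 0.0598, which shows no shared deviation by number. Such values cannot tell whether same-numbered samples were collected together. The structural median was -0.31 with the same total FPKM, -0.30 with quantile normalization, -1.06 with the spike-in factors and -0.55 to -0.43 with 1 library left out. For assembly factors it was -0.51, -0.78 (median-of-ratios scaling), -1.18 (spike-in factors) and -0.73 to -0.60 with 1 library left out, the last without WT 1. Of the 31 called, only Ndufa1 changed sign (0.051 with quantile normalization, where it was not called). Signs also changed for uncalled ones: Ndufb11 (0.085) with quantile normalization, Ndufaf3 (-0.41), Ndufa10 (-0.41) and Ndufv1 (-0.50) with the spike-in factors, Ndufv1 (-0.054) with median-of-ratios scaling, and 1810043H04Rik (Ndufaf8) with the same total FPKM (0.18) and quantile normalization (0.16). With 1 library left out, log2 changes ran from -0.036 to 0.25 for Ndufa10 (negative without WT 2), -0.16 to 0.18 for Ndufv1 (negative without Pabpn1-null 2 or WT 2) and -0.044 to 0.041 for 1810043H04Rik (positive without Pabpn1-null 2 or WT 1). The cause was not tested, and the depth behind each FPKM is not known.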
